A study of Mus musculus with 4 samples.

Results

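The Cyp2c family is a set of cytochrome P450 genes that lie side by side on mouse chromosome 19. It was followed here through 8 genes, Cyp2c29, Cyp2c37, Cyp2c38, Cyp2c39, Cyp2c50, Cyp2c54, Cyp2c55 and Cyp2c70, chosen by gene symbol from the annotation of the array. Each of the 8 genes had 1 probe set, out of 45101 probe sets and 18193 genes on the array. Livers came from C57BL/6J mice of 2 months. All mice had a first exposure of 2 intraperitoneal injections, 24 h apart, and a second exposure after 7 days, and the liver was taken 5 h after the second. Either exposure was ethylbenzene, an aromatic solvent, at 7 mmol per kg, or phosphate-buffered saline (PBS). Group P+P received PBS both times, E+P ethylbenzene and then PBS, P+E PBS and then ethylbenzene, and E+E ethylbenzene both times. RNA of 3 mice was pooled in P+P and in E+P and RNA of 5 mice in P+E and in E+E, and each pool went onto 1 Affymetrix array. There were thus no replicates and no test, pool size and second exposure cannot be told apart, and all ratios below compare single arrays.

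Cytochromes P450 are heme enzymes of the endoplasmic reticulum that insert an oxygen atom into drugs, solvents, steroids and fatty acids, with electrons passed on by a reductase. The Cyp2c enzymes of mouse liver oxidize drugs and also turn arachidonic acid into epoxides and hydroxy acids that act as lipid signals. Several of the genes are transcribed mainly in the hepatocytes around the central vein. Their transcription in liver depends on HNF4A, a nuclear receptor of hepatocytes, and some are induced by drugs through the receptors CAR (encoded by Nr1i3) and PXR (encoded by Nr1i2).

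The RefSeq table listed 15 protein-coding Cyp2c genes, and 11 of them had a probe set. In chromosomal order the cluster runs Cyp2c55, Cyp2c65, Cyp2c66, Cyp2c29, Cyp2c39, Cyp2c38, Cyp2c67, Cyp2c68, Cyp2c40, Cyp2c69, Cyp2c37, Cyp2c54, Cyp2c50 and Cyp2c70, with Cyp2c23 farther along the chromosome. Cyp2c39 is placed here by the first of its 2 starts, and its other start lies past that of Cyp2c38. The Cyp2c genes are close copies, and a probe set of one can take up RNA of another. The probe sets were 1417651_at for Cyp2c29, 1419094_at for Cyp2c37, 1452501_at for Cyp2c38, 1421363_at for Cyp2c39, 1418653_at for Cyp2c50, 1455457_at for Cyp2c54, 1419582_at for Cyp2c55 and 1424273_at for Cyp2c70. None of these identifiers carries the ending _s_at or _x_at that the manufacturer gives to probe sets matching several transcripts. Signals of different probe sets are not comparable in level, so each gene is compared with itself across the arrays.

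Promoter windows of RefSeq (build GRCm38.p6) were found for 7 of the 8 genes, each with 250 bases before a RefSeq transcription start and 50 from it on. Of these, 5 are printed because they belong to the genes the results turn on. Cyp2c29 and Cyp2c55 had the largest ratios of P+E against P+P, Cyp2c37 and Cyp2c50 are the closest pair of promoters and had small ratios, and Cyp2c70 holds every motif searched. Capitals mark matches on either strand to 3 motifs, named here as they were searched. The core of the HNF4 type motif is CAAAGTC. The TATA box that binds the general transcription machinery was searched as TATAAA, which on the opposite strand reads as the capitals near the start of Cyp2c70. The half-site bound by many nuclear receptors was searched as AGGTCA. Sequences run 5′ to 3′ on the strand of the gene.
Cyp2c29, plus strand, chr19:39286835-39287134: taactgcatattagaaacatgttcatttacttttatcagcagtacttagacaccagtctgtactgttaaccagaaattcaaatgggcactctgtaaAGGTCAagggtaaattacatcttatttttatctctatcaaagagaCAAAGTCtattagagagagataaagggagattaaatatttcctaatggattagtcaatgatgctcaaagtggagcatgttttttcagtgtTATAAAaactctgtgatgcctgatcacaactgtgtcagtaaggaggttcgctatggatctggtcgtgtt
Cyp2c55, plus strand, chr19:39006769-39007068: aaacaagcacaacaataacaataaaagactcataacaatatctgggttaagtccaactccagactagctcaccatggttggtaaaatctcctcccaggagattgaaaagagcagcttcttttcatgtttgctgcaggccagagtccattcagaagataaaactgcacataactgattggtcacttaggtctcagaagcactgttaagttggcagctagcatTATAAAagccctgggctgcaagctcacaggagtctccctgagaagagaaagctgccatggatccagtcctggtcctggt
Cyp2c37, plus strand, chr19:39992174-39992473: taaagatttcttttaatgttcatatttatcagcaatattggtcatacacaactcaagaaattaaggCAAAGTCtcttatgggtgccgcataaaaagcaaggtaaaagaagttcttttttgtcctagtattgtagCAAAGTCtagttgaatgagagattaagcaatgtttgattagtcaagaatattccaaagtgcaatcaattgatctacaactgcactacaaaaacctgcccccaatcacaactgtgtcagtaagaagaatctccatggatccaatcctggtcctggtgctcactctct
Cyp2c50, plus strand, chr19:40089429-40089728: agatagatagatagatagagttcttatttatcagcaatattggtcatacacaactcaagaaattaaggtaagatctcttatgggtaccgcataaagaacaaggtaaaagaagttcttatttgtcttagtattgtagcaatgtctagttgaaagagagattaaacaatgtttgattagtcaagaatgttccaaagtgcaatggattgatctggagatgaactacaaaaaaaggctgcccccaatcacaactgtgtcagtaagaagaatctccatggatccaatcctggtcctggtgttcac
Cyp2c70, minus strand, chr19:40187237-40187536: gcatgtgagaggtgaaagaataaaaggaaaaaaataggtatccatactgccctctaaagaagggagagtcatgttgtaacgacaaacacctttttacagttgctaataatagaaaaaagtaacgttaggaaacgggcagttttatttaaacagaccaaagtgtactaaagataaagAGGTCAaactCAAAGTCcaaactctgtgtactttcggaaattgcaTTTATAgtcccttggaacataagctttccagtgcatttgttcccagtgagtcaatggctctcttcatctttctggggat

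CAAAGTC occurred in the windows of 4 genes, at 109 bases before the start in Cyp2c29, at 184 and 116 bases in Cyp2c37, at 64 bases in Cyp2c70 and in both windows of Cyp2c39, which has 2 starts. The longer HNF4 type motif CAAAGTCCA, which contains CAAAGTC, occurred in Cyp2c70 alone among the members. Over all 32817 windows of the same length, searched on both strands, 4.44% held CAAAGTC and 0.475% held CAAAGTCCA. TATAAA was in the windows of 5 members against 13.6% of all windows, and AGGTCA in those of 3 members against 16.3%. The TATAAA of Cyp2c70 was on the opposite strand, and that of Cyp2c39 was in its second window alone, from 3 bases before the start. Members are counted by gene and the shares by window, and promoters of close copies are not independent. A match is only a run of letters and was not linked to binding of a factor. In global alignments the windows of Cyp2c37 and Cyp2c50 were 86.6% identical, those of Cyp2c29 and Cyp2c38 70.8%, and those of Cyp2c29 and Cyp2c55 54.6%.

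**Figure D1:**
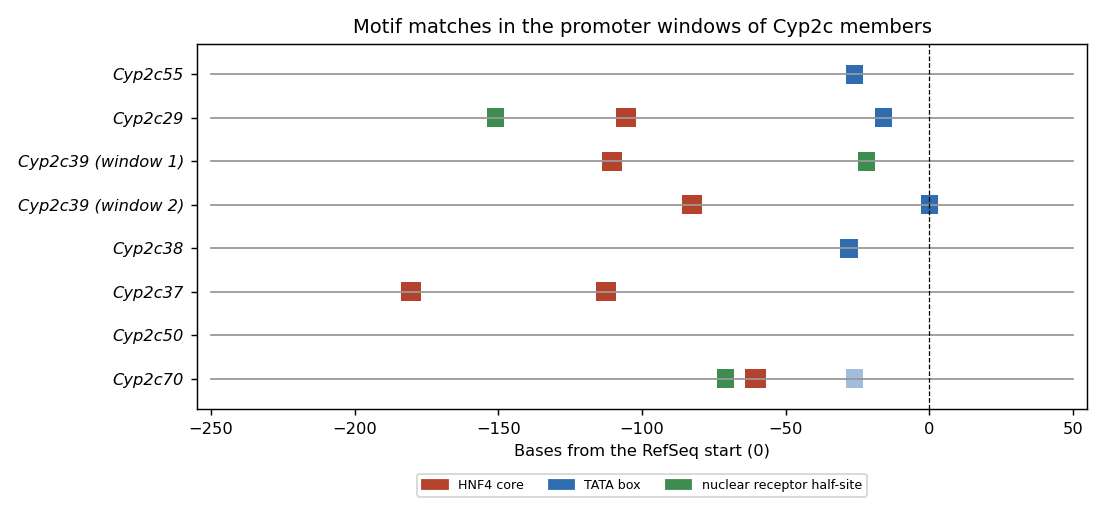
Positions of the motif matches in the promoter windows of 7 Cyp2c genes, in bases from the RefSeq start at 0. Each grey line is a window, each block a match, and the pale block is a match on the opposite strand; Cyp2c50 holds none of the 3 motifs and Cyp2c37 holds 2 copies of the HNF4 core.

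The P+P array stood apart in a control. The signal of 18S ribosomal RNA control probe sets was 1870 on P+P and 122 to 182 on the other arrays, and the ratio of 3′ to 5′ signal of the Pcx control was 23.5 on P+P against 6.15 to 12.0 elsewhere. The ratios of P+E against P+P are therefore also given with the E+P array in place of P+P for the P450 genes and regulators named. P+E and E+P differ in both the first and the second exposure, so this ratio mixes them. It also shares the E+P array with E+E against E+P. Hepatocyte markers marked the tissue as liver: all 8 with a probe set, of 10 listed, passed the low-level filter, which kept probe sets with a mean signal of about 120.0 or more. Their median log2 ratio was 0.02 for P+E against P+P and -0.05 for E+E against E+P. Single markers differed from it, with Fgb at 0.67 and 0.44 and Pck1 at -0.50 and -1.10. As deposited, the summed signal of the 8 markers was higher after ethylbenzene. It was 869930 (P+P) and 948802 (E+P) after PBS and 1052590 (P+E) and 1147164 (E+E) after ethylbenzene. Ratios are log2 differences of quantile-normalized signals after adding 43.2. A difference of at least 2-fold (1 on this scale) was used as a rule of size, with 1.5-fold as a second rule added after the data were seen. All 8 Cyp2c probe sets passed the filter, as did 22519 probe sets in all. The array holds whole tissue, so more transcript per cell and more cells of a type cannot be told apart.

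The second exposure was compared first, as P+E against P+P in mice given PBS before and as E+E against E+P in mice given ethylbenzene before. These ratios share no array, and pairs of values follow this order. Most Cyp2c probe sets read slightly higher on the arrays taken 5 h after ethylbenzene, among them Cyp2c29 and Cyp2c38 by similar ratios with and without a first exposure. None of the 8 was at least 2-fold higher in P+E against P+P (7.34% of all tested probe sets were) or 2-fold lower (7.11%). In E+E against E+P, 1 was at least 2-fold higher, the dim probe set of Cyp2c39 (7.32% of all tested), and no member was 2-fold lower (7.05%). The median log2 ratio of the 8 was 0.40 and 0.48, against -0.04 and -0.04 over all tested probe sets.

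Cyp2c29 encodes an enzyme that epoxidizes arachidonic acid. Its deposited signal was 37489 (P+P) and 38964 (E+P) after PBS and 61916 (P+E) and 62499 (E+E) after ethylbenzene. Both arrays after ethylbenzene lay above both arrays after PBS, and arrays with the same second exposure were nearly level. In deposited signals it was 1.65-fold and 1.60-fold higher, and the log2 ratios were 0.71 and 0.60. With E+P in place of P+P the ratio of P+E was 0.65. In that comparison of P+E with E+P, 2 members, Cyp2c39 and Cyp2c55, were at least 2-fold higher (6.81% of all tested probe sets). Cyp2c29 was alone among the members in reaching 1.5-fold in both second-exposure ratios, while 6.61% of all tested probe sets did, and 7.02% of those past a filter at the 75th percentile. No member was 1.5-fold lower in both (6.21%). The nearby Cyp2c38 gave the same order at a smaller size. The signals of Cyp2c38 were 3634, 3892, 4662 and 5021 in the same order of arrays, with log2 ratios of 0.39 and 0.41, and 0.28 for P+E with E+P in place of P+P.

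Cyp2c55 encodes an enzyme that hydroxylates arachidonic acid, is found in the gut as well as in liver, and is known as inducible through CAR and PXR. Its signal was 1371 (P+P) and 1015 (E+P) after PBS and 2381 (P+E) and 1453 (E+E) after ethylbenzene. P+E was the highest array by far, E+E lay just above P+P, and E+P was the lowest. The log2 ratios were 0.83 and 0.54, and the ratio of P+E was 1.25, past 2-fold, with E+P in place of P+P. In P+E against P+P, Cyp2c29 and Cyp2c55 were at least 1.5-fold higher, 2 of the 8 against 15.7% of all tested probe sets, and none was 1.5-fold lower (17.1%). In E+E against E+P they were Cyp2c29 and Cyp2c39, again 2 of the 8 against 16%, with none lower (17.3%). These counts are close to the share of all tested probe sets. Since Cyp2c55 is also an intestinal gene, gut markers were read beside it. Of 7 intestinal epithelium markers, 4 passed the filter, and none of these 4 differed by 2-fold in either of the ratios. The summed signal of the 7 lay between 7204 and 8468 on the arrays, lowest on P+E, with most of it from Fabp2. Single markers differed from the sum: Cdx2 had signals of 171 and 72.2 after PBS (P+P, E+P) and 276 and 107 after ethylbenzene (P+E, E+E), highest on P+E like Cyp2c55, and Lgals4 had log2 ratios of 0.41 and 0.89. Cdx1, which did not pass the filter, had 137 on P+E and 8.3 to 31.1 on the other arrays. Vil1, a defining gene of the brush border, had signals of 7.4 to 20.6. The part of gut RNA in the Cyp2c55 signal was not tested.

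Cyp2c70 encodes the hydroxylase that makes muricholic acids, the hydrophilic bile acids of rodents, from chenodeoxycholic acid. Its signal was 31046 (P+P) and 34880 (E+P) after PBS and 39590 (P+E) and 53861 (E+E) after ethylbenzene. The arrays after ethylbenzene were again the higher ones, and E+E stood above all. The log2 ratios were 0.42 and 0.57, and 0.35 and 0.63 as deposited. The ratio of P+E was 0.24 with E+P in place of P+P. Cyp2c70 was the only member apart from Cyp2c38 and the dim Cyp2c39 whose ratio was larger in mice given ethylbenzene before.

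Cyp2c37, Cyp2c50 and Cyp2c54, neighbours in the cluster that encode enzymes of arachidonic acid and drug oxidation, were higher on P+E than on P+P but near level between E+P and E+E. Cyp2c37 had signals of 14457, 14598, 16133 and 14982 in the order P+P, E+P, P+E, E+E, and log2 ratios of 0.23 and 0.04, or 0.19 in place of 0.23 against E+P. Cyp2c50 had signals of 54410, 60305, 70058 and 71013, and log2 ratios of 0.26 and 0.00. For this very bright probe set the scaling mattered: as deposited its ratios were 0.36 and 0.24. Against E+P its ratio on P+E was 0.11. Cyp2c54 had signals of 21676, 29250, 28771 and 28813. P+P was the only low array for Cyp2c54, and the other arrays were within a few percent of each other. Its log2 ratios were 0.44 and -0.01, and with E+P in place of P+P the ratio of P+E was 0.03.

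Cyp2c39, which encodes a retinoic acid hydroxylase, was read near the lower limit. Its signal was 222 (P+P) and 76.4 (E+P) after PBS and 256 (P+E) and 314 (E+E) after ethylbenzene. The E+P signal lay below the filter level and was the only low one. The log2 ratios were 0.04 and 1.49, with 1.22 for P+E against E+P, and the second became 1.08 with the E+P signal set to the filter level of 120.0. The probe set did not pass a filter at the 75th percentile, so no member was at least 2-fold higher there.

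**Figure D2:**
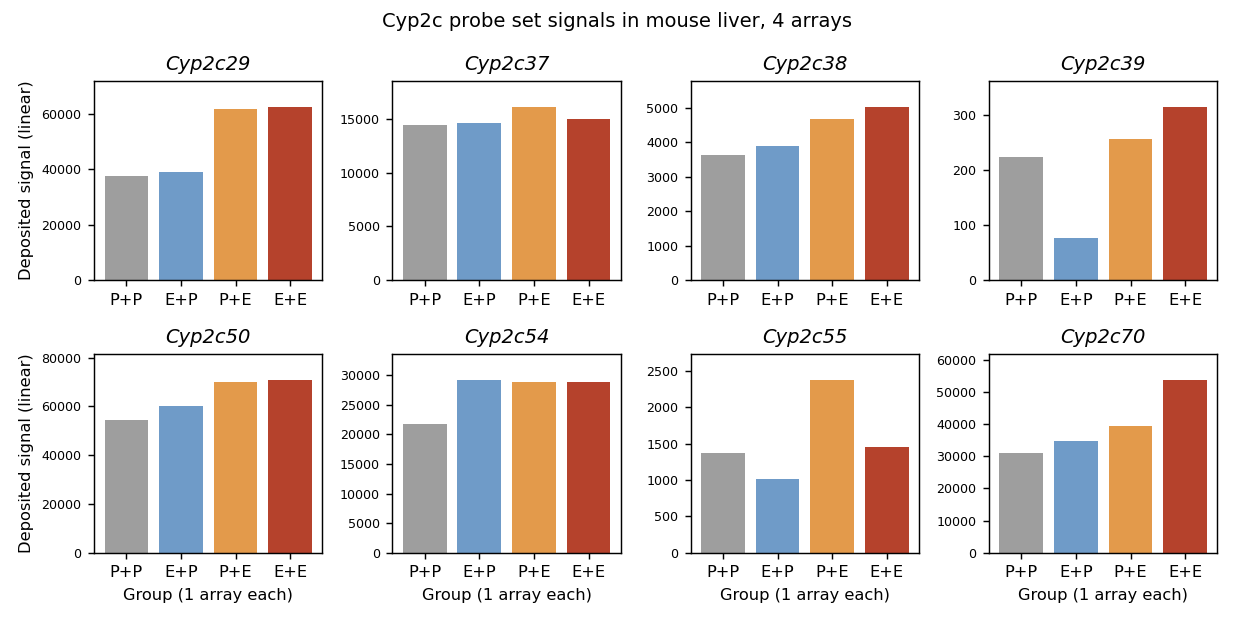
Deposited signals (linear scale from 0, 1 array of pooled RNA per bar, no error available) of the 8 Cyp2c probe sets in the 4 groups. Cyp2c29 was 37489 and 38964 on the arrays after PBS and 61916 and 62499 on those after ethylbenzene, while Cyp2c39 was low on E+P alone and Cyp2c54 on P+P alone.

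By sign alone, 8 of 8 members lay above 0 in P+E against P+P (46.9% of all tested probe sets did) and 6 of 8 in E+E against E+P (46.6%). The first count was also 8 as deposited (49.8% of all) and with a common 75th percentile (45.7%), and 8 with E+P in place of P+P (46.9%). The second was 7 under both other scalings (48.8% and 46.5%), with Cyp2c54 below 0 each time. In both ratios at once 6 of 8 lay above 0 (28.4%). The members lie in 1 gene cluster and can share signal, so they are not independent readings. Of the other Cyp2c genes with a probe set, Cyp2c68, which lies inside the cluster, followed Cyp2c37 with log2 ratios of 0.25 and -0.08, and 0.15 for P+E against E+P. Cyp2c23, an epoxygenase gene outside the cluster, went the other way. Its signal was 32970 (P+P) and 35829 (E+P) after PBS and 18821 (P+E) and 23856 (E+E) after ethylbenzene, with log2 ratios of -0.76 and -0.57, and -0.88 for P+E against E+P. Both arrays after ethylbenzene lay below both after PBS. Cyp2c65 did not pass the filter.

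**Figure D3:**
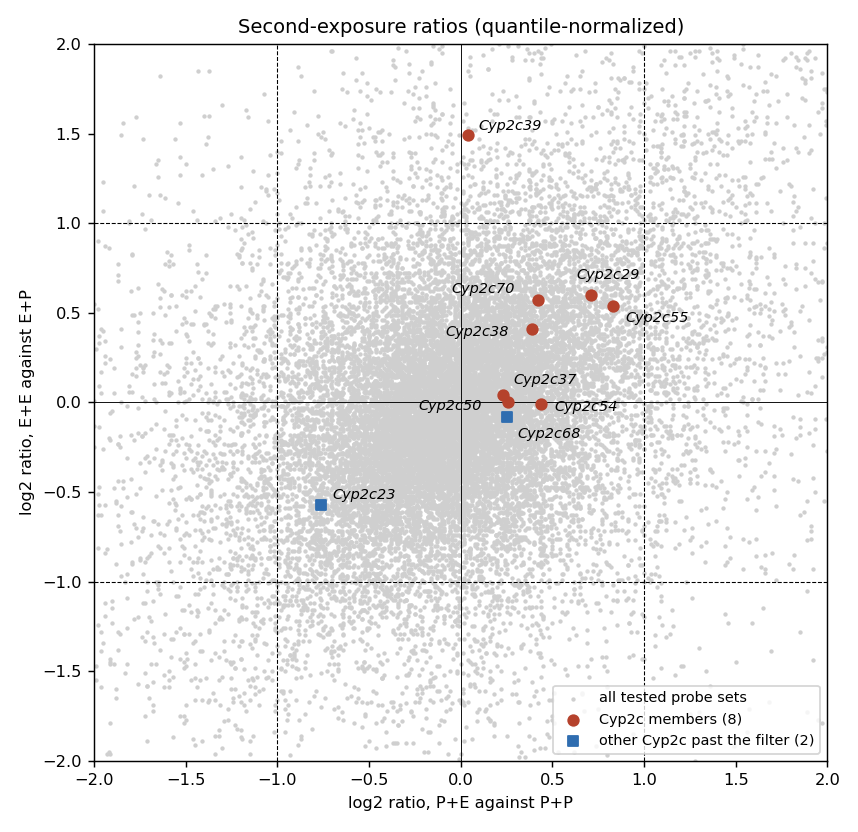
Log2 ratios of P+E against P+P (x axis) and E+E against E+P (y axis) after quantile normalization, for all tested probe sets (grey), the 8 Cyp2c members (red) and Cyp2c23 and Cyp2c68 (blue); dashed lines mark 2-fold, and 876 tested probe sets lie outside the plotted range. Cyp2c29, Cyp2c55, Cyp2c70 and Cyp2c38 lie to the upper right of the origin, Cyp2c37, Cyp2c50 and Cyp2c54 near the horizontal axis, and Cyp2c23 to the lower left.

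A list of 24 other P450 genes of liver was set beside the family, and 19 of them had a probe set past the filter. Their median log2 ratios were -0.09 and -0.10, and 9 and 7 of the 19 lay above 0. The first median changed sign with the scaling: it was 0.10 as deposited and 0.04 with a common 75th percentile, with 10 of 19 above 0 in each, and 9 above 0 in the second ratio. In both ratios 2 were at least 2-fold higher (2.81% of all tested probe sets) and 2 at least 2-fold lower (1.83%). The higher ones were Cyp2b10, the standard target of CAR, at 7.62 and 5.87, and Cyp3a13 at 1.81 and 1.12. The lower ones were the bile acid synthesis genes Cyp7a1, at -5.37 and -4.93, and Cyp7b1, at -1.91 and -1.46. Another probe set of Cyp7a1 was at -2.37 and -3.03, with -2.62 for P+E against E+P. Against E+P, the P+E array was at 6.27 for Cyp2b10, 1.36 for Cyp3a13, -5.01 for Cyp7a1 and -1.49 for Cyp7b1. Cyp2b10 and Cyp2c29, both known CAR targets, therefore differed widely in size: Cyp2b10 went from signals of 115 on P+P and 382 on E+P to 32160 on P+E and 24975 on E+E.

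Regulators and redox partners of the family were read from a list of 16, of which 15 passed the filter. Of these, 4 lay above 0 in each ratio, and the medians were -0.24 and -0.32. Nr1i3, which encodes CAR, had signals of 3764 (P+P) and 4796 (E+P) after PBS and 1998 (P+E) and 1699 (E+E) after ethylbenzene. Both arrays after ethylbenzene were the lower ones, with log2 ratios of -0.85 and -1.45, and -1.22 for P+E against E+P. The probe sets of Nr1i2, which encodes PXR, disagreed: the brighter had log2 ratios of 1.45 and 0.04 and the other 0.38 and -0.40. Against E+P the P+E array was at 0.53 for the brighter, short of 2-fold, and at -0.35 for the other. The probe sets of Hnf4a disagreed too: the brightest was at -0.10 and 0.20, while another was at 1.44 and -0.54, with signals of 1164 on P+P and 2004 to 3128 on the other arrays. Against E+P the P+E array was at 0.23 for the brightest and 0.09 for the other. Cebpb, a transcription factor gene of the acute phase response, was at 1.11 and 1.30, and Cebpa, a transcription factor gene of the differentiated hepatocyte, at -2.03 and -1.18, with P+E against E+P at 1.30 for Cebpb and -1.82 for Cebpa. Cebpb and Cebpa were the only genes of the list at least 2-fold apart the same way in both ratios. No probe set was named for Por, the reductase gene.

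Markers of other cells moved between the same arrays. Summed signals of 6 pancreatic acinar markers were 2725 (P+P) and 2076 (E+P) after PBS and 6640 (P+E) and 6496 (E+E) after ethylbenzene, and in each ratio 5 of the 6 read higher by 2-fold or more. Among them Ctrb1 had signals of 9.7 (P+P) and 11.6 (E+P) after PBS and 775 (P+E) and 793 (E+E) after ethylbenzene. The remaining marker, Cela1, read lower, with log2 ratios of -0.52 and -0.11. It made up most of the summed signal after PBS, with 2394 on P+P and 1922 on E+P. Of 7 neutrophil markers 4 passed the filter, and S100a8 and S100a9 read higher by 2-fold or more in each ratio. The others past the filter were lower in P+E against P+P, Camp at -1.51 and Ngp at -0.89, and stood at 0.06 and 1.33 in E+E against E+P. S100a8 and S100a9 made up most of the signal after ethylbenzene; the summed signal of the 7 was 1221, 596, 3980 and 6406. Pericentral hepatocyte markers, which mark the zone where several Cyp2c genes are active, had median log2 ratios of -0.41 and -0.64 over 8 genes, with Slc1a2 and Lgr5 at least 2-fold lower in both. The list was not uniform: Glul alone lay above 0 in both, at 0.21 and 0.48, and Cyp2e1 was at -0.09 and -0.10. Lgr5 was dim, with a signal of 79.0 on P+E. The summed signal of the 8 genes, most of it from Cyp2e1, was 204636, 216352, 203813 and 220306. The part of these cells in the Cyp2c ratios was not tested.

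The first exposure was compared next, 7 days on, as E+P against P+P in mice given PBS second and as E+E against P+E in mice given ethylbenzene second. Cyp2c29 was almost level in both, and no member was 1.5-fold higher in both (1.78% of all tested probe sets) or 1.5-fold lower in both (1.61%). Its log2 ratios were 0.06 and -0.05. In E+P against P+P no member was at least 2-fold higher (3.39% of all tested probe sets) and 1, Cyp2c39 at -1.18, was at least 2-fold lower (3.22%). No member was 1.5-fold higher (10.1%) and Cyp2c39 alone was 1.5-fold lower (9.63%). With its E+P signal at the filter level, Cyp2c39 was at -0.78, short of 2-fold. In E+E against P+E no member was 2-fold apart (4.83% of all tested were higher and 4.52% lower) and none was 1.5-fold higher (12.4%). The medians of the 8 were 0.08 and -0.05, with 6 and 3 above 0 (49.7% and 49.9% of all tested). The second count was 6 as deposited and with a common 75th percentile, where Cyp2c29, Cyp2c50 and Cyp2c54 lay just above 0, and the first was 5 with a common 75th percentile, where Cyp2c37 lay just below 0.

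Cyp2c55 was lower on both arrays of mice given ethylbenzene first, with log2 ratios of -0.41 and -0.71. The second was at least 1.5-fold lower, as were 11.9% of all tested probe sets. Cyp2c70 was higher in both, at 0.17 and 0.32, or 0.17 and 0.44 as deposited. Cyp2c38 was at 0.11 and 0.13. Cyp2c54 was at 0.42 and -0.04, and Cyp2c50 at 0.15 and -0.11, or 0.15 and 0.02 as deposited. Kupffer cell markers also differed here: all 8 passed the filter, with median log2 ratios of 0.66 and 0.19 and a summed signal of 12958 (P+P) and 20659 (E+P) after PBS and 11555 (P+E) and 13676 (E+E) after ethylbenzene. Their part in the Cyp2c ratios was not tested.

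**Figure D4:**
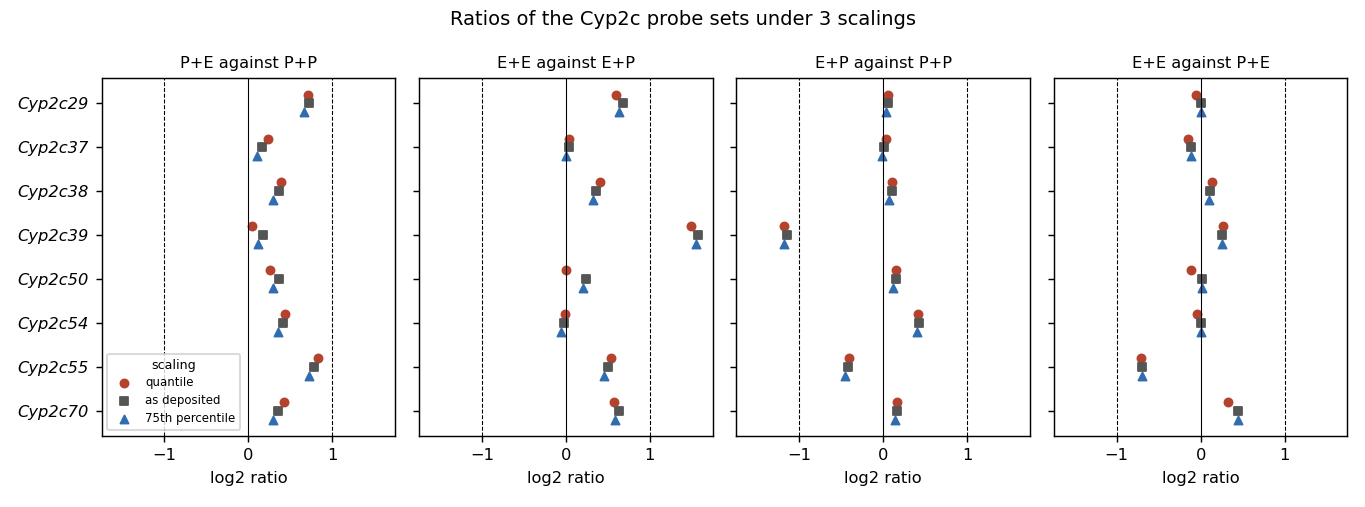
Log2 ratios of the 8 Cyp2c probe sets in the 4 comparisons, after quantile normalization (circles), as deposited (squares) and with a common 75th percentile (triangles); dashed lines mark 2-fold. The scalings lie close together for each gene, and Cyp2c50 in E+E against E+P, at 0.00, 0.24 and 0.20, is among those that moved most.

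The dependence of the second response on earlier ethylbenzene was read from the difference of the second-exposure ratios, E+E against E+P minus P+E against P+P. Its median over the 8 was -0.15, and 3 of 8 lay above 0 (49.6% of all tested probe sets). Cyp2c38, at 0.02, and Cyp2c29, at -0.11, had nearly equal ratios with and without a first exposure. Cyp2c54 was at -0.45, Cyp2c55 at -0.29, Cyp2c50 at -0.26, Cyp2c37 at -0.19 and Cyp2c70 at 0.15. For Cyp2c54 the difference came with a low P+P signal and level signals on the other arrays. Cyp2c39, at 1.45, was the only member at least 2-fold apart in this measure (8.91% of all tested were higher and 8.62% lower), or 1.05 with its E+P signal at the filter level. This difference holds the error of all 4 arrays.

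As a description of its pattern, the genes closest to Cyp2c39, the member with the widest range over the 4 arrays (1.49 on the log2 scale), were sought among 11512 genes by the Euclidean distance of mean-centred log2 signals. The 5 closest were Sppl2b at a distance of 0.07, Srebf2 at 0.12 and Mef2d, Yipf7 and Spag16 at 0.13. All of them were low on E+P alone, as for Srebf2 with 713 (P+P) and 299 (E+P) after PBS and 739 (P+E) and 819 (E+E) after ethylbenzene. The same search for Cyp2c29, chosen after its values were seen, gave Ssx2ip at 0.03, Rasgef1b and Gtf2a2 at 0.04, and Sars2 and Tcof1 at 0.05. These distances rest on 4 arrays only.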

How the data were processed

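The authors deposited intensities on a linear scale, 1 signal per probe set, for 4 Affymetrix arrays, each of RNA pooled by group, per the labels. Their software is not given in the sources used here. They had scaled them, since the mean without the lowest and highest 2% of signals was 500.0 on every array. Signals were quantile-normalized and expressed as log2(signal + 43.2), where 43.2 is the 25th percentile of all deposited signals, which understates ratios of dim probe sets. Quantile normalization also compresses the brightest, such as several Cyp2c probe sets. Probe sets with a mean log2 level at or above the median (a signal of 120.0) were tested, 22519 of 45037 without controls. Names came from the platform annotation, updated through Entrez identifiers in a RefSeq table (GRCm38.p6). Of the probe sets, 34958 had 1 symbol, 932 several and 9147 none listed. Groups came from sample titles.

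With 1 array per group no test was made. The number of arrays limits the precision. Named genes were the members, the other Cyp2c genes, listed regulators and P450 genes past 2-fold in a common direction in the second-exposure ratios, Nr1i3, Nr1i2, Hnf4a and Por, and the 5 genes nearest in pattern to the widest-ranging member. Lists use the brightest probe set of each gene. Members and lists were chosen with earlier results of these data known. Alternatives were other scalings, pseudocounts of 16 and 1, other filters, and other uses of probe sets. Low signals set to the filter level, and E+P in place of P+P, were added after seeing the data. Steps were tested on simulated data (Python 3.11.15, pandas 2.3.3, NumPy 2.4.6, Biopython 1.88).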

Additional observations from a re-analysis of the deposited data

Results flagged for a closer look

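Several genes had ratios of opposite sign for the same exposure in the other setting, each on single arrays, and none of these differences was tested. The value given is the log2 ratio in mice with the other exposure as ethylbenzene minus that with PBS. For the first exposure it was 1.45 for Cyp2c39, -0.45 for Cyp2c54, -0.26 for Cyp2c50, -0.19 for Cyp2c37 and -0.11 for Cyp2c29. Of these genes Cyp2c54 also had opposite signs for the second exposure, with the same difference of -0.45, since both are made from the same 4 signals. Among the regulators, read by the brightest probe set of each, the first exposure gave -0.60 for Nr1i3 and -1.41 for Nr1i2, and the second gave 0.30 for Hnf4a. Probe sets of the same gene differed in this value. The other one of Nr1i2 gave -0.77, and the others of Hnf4a gave -0.27, 0.14 and -1.98. As deposited and with a common 75th percentile, Cyp2c29, Cyp2c50 and Cyp2c54 no longer had opposite signs for the first exposure, nor did Cyp2c37 with a common 75th percentile.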

How the results depend on the processing

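Filters and other uses of probe sets cannot alter the ratio of a gene with 1 probe set. Under the other 6 alternatives, 205 of 208 ratios of single members stayed on their side of 2-fold, and the exceptions were Cyp2c39 and Cyp2c55. The 208 include ratios that could not change. Low signals set to the filter level act on Cyp2c39 alone, the only member with a signal below that level. Signs changed 7 times, for ratios of at most 0.11, and Cyp2c50 in E+E against E+P went from 0 to above 0 in both other scalings. Counts of members 2-fold apart rested on Cyp2c39: with a filter at the 75th percentile they were 0 in place of 1 in E+E against E+P, E+P against P+P and the difference of ratios, and with low signals at the filter level 0 in place of 1 in E+P against P+P. With E+P in place of P+P, 2 members were at least 2-fold higher on P+E (Cyp2c39 at 1.22 and Cyp2c55 at 1.25) in place of 0. Both had their lowest signal on E+P, which differs from P+E in both exposures. The median for P+E against P+P was 0.26 with E+P in place of P+P and 0.30 with a common 75th percentile, against 0.40. No paired analysis was possible because each group had 1 array. Signal near background limits Cyp2c39.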
